A study of Mus musculus with 6 samples.

Results

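The Krüppel-like factor (Klf) genes encode transcription factors that bind GC-rich and CACCC-type DNA through zinc fingers at their C-terminal end. Some members mostly activate transcription, while others recruit the corepressors CtBP or Sin3. Several of them are induced within minutes to hours by injury, shear stress, transforming growth factor beta or glucocorticoids, and in the liver Klf6 is known as an injury-induced member of the family. A total of 10 family members (Klf2, Klf3, Klf4, Klf6, Klf9, Klf10, Klf11, Klf12, Klf13 and Klf15) was examined among 17097 measured genes. They were found through every probe set that the platform annotation assigns to a single gene, which gave 28 of 28898 such probe sets. Where a gene had several probe sets, the one brightest on average was used.

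The data are 6 one-channel Affymetrix arrays of liver RNA from C57Bl/6 mice, taken 12 h after 70% partial hepatectomy, the removal of most of the liver to start its regrowth. The wildtype group and the group labelled DeltaKlf6, a hepatocyte-specific Klf6 knockout, have 3 arrays each, taken here as 3 animals. The study had 6 animals per group. All animals had the operation, and an unoperated group was not analysed here. The labels and notes used here give neither the Cre driver of the knockout nor the age or sex of the mice. The question is which transcripts in regenerating liver depend on hepatocyte Klf6, and for this family whether its other members differ when Klf6 is deleted.

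Values are log2 expression made by the authors with RMA. Array medians were at most 3.45, and a value near them cannot be told from background here, because no detection call was used. Hepatocyte markers were bright in all arrays, with albumin (Alb) between 12.52 and 13.33. The upper quartile was 5.08 in the library labelled DeltaKlf6 3 and 5.50 to 5.63 in the other 5 arrays. The Gapdh control probe sets, read as 3' minus 5' signal, gave 4.06 to 4.43 in wildtype, with DeltaKlf6 1, 2 and 3 at 3.47, 3.45 and 4.83. The actin controls gave 4.86 to 5.39 in wildtype and 4.22, 3.998 and 5.05 in the same libraries, so DeltaKlf6 1 and 2 were below wildtype in both controls and DeltaKlf6 3 was above it for Gapdh and within it for actin. The part of these differences in the Klf values below was not tested. The targeted gene went against its label in DeltaKlf6 1 (below), so groups are named as labelled throughout.

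Promoter sequences of 4 members are shown because these members stood in contrasting places in the libraries: Klf4, Klf6 and Klf9 were high in DeltaKlf6 1 and low in DeltaKlf6 3, and Klf12 was low in both. Each is the 250 bases before the gene's start in RefSeq (GRCm38.p6). They lie at chr4:55532476-55532725 on the minus strand for Klf4, chr13:5861239-5861488 on the plus strand for Klf6, chr19:23140976-23141225 on the plus strand for Klf9, and chr14:100149797-100150046 on the minus strand for Klf12. Capitals mark GGGCGG (the GC box), CACCC and CACGTG (the E-box), on either strand, and matches may overlap.
Klf4: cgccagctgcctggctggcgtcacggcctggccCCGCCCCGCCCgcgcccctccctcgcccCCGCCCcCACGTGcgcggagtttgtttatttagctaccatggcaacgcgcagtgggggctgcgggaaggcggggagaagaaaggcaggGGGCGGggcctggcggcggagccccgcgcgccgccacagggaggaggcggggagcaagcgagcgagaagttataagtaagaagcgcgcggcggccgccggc
Klf6: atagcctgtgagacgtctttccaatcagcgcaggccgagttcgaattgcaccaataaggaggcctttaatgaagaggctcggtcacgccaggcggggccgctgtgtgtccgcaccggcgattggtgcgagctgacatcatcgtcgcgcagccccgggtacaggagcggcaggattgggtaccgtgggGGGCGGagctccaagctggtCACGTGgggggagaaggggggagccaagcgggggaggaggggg
Klf9: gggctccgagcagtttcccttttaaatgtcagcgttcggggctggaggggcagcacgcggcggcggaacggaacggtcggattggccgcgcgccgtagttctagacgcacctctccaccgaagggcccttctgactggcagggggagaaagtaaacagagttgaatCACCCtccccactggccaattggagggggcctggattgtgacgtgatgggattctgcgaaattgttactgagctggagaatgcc
Klf12: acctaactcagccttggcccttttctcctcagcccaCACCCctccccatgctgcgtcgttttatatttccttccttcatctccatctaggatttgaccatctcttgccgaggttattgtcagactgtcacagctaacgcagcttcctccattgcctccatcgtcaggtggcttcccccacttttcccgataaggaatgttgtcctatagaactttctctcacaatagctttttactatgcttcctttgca

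Windows were on hand for 9 members, all except Klf10. GGGCGG was present in 7 of them and in 32.7% of all 32851 promoter windows of the same length. CACCC, an element that the family itself can bind, was present in 6 of 9 and in 52% of all windows. CACGTG was found in 4 of 9, in those of Klf4, Klf6, Klf11 and Klf15, against 6.02% of all windows. The full cyclic AMP response element TGACGTCA was in 0 of 9 and in 1.55% of all windows. The windows of Klf members were mostly GC-rich, from 48% for Klf12 to 78.4% for Klf3, beside a median of 52.4% over all windows. Among the 9178 windows with at least 60% GC, GGGCGG was present in 76.5%, CACCC in 65.4% and CACGTG in 9.32%. The GC box count is therefore near that of GC-rich promoters. Of the 4 sequences printed, those of Klf4 and Klf6 hold GGGCGG and CACGTG without CACCC, and those of Klf9 and Klf12 hold 1 CACCC and neither of the others. These are letter matches and do not show binding.

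No Klf gene passed the test between the groups by limma. After adjustment over all 17097 genes 0 members passed at 0.05, and 0 had an unadjusted p under 0.05. Over all genes 0 passed (0%), and 631 (3.69%) had an unadjusted p under 0.05. By group mean 7 members were lower and 3 higher in DeltaKlf6, where 51.6% of all genes were lower. The median difference over the members was -0.13, and -0.01 over all genes. In 0 of 10 members did the groups fail to overlap, against 9.32% of all genes. The values of several members were spread widely over the DeltaKlf6 libraries, as described by library below.

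**Figure D1:**
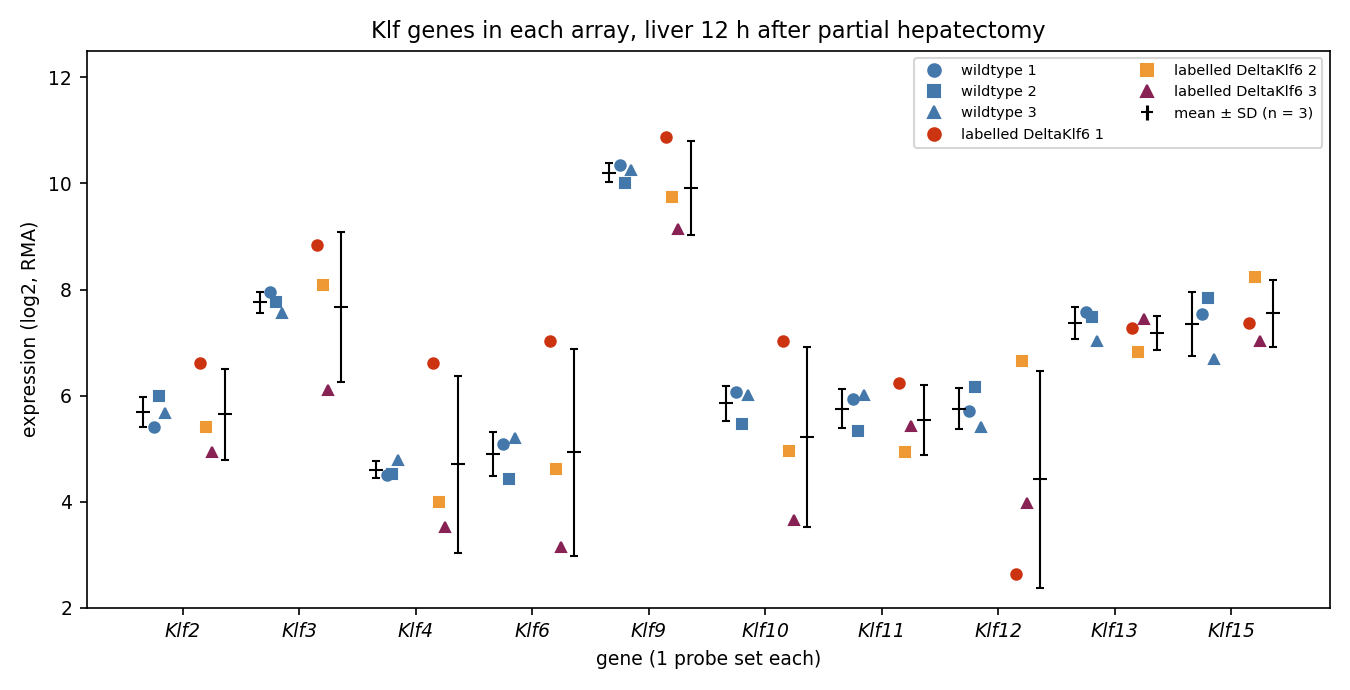
Expression (log2, RMA) of the 10 Klf genes, on 1 probe set each, in the 3 wildtype arrays (blue) and the 3 libraries labelled DeltaKlf6 (red, orange and purple), with the mean and SD of each group as black bars. The groups overlap for every gene, and the DeltaKlf6 values of Klf6 run from 3.15 to 7.03 while wildtype runs from 4.43 to 5.20.

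Klf6, the targeted gene, was not lower as a group. On its brightest probe set (1433508_PM_at) the wildtype arrays 1, 2 and 3 read 5.09, 4.43 and 5.20, while the libraries labelled DeltaKlf6 1, 2 and 3 read 7.03, 4.61 and 3.15. DeltaKlf6 1 lay above all wildtype arrays, at 4.35-fold the wildtype mean, DeltaKlf6 2 lay within their range, and DeltaKlf6 3 lay below them, under its array median. The group difference was 0.02 on the log2 scale (SE 0.84, 95% interval -1.92 to 1.97, adjusted p = 0.9995 by limma). This interval does not show that the groups are alike. It covers a clear loss of Klf6 transcript as well as a clear gain.

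The other Klf6 probe sets gave the same order for the highest library. On 1427742_PM_a_at the DeltaKlf6 values were 5.88, 4.12 and 3.74, against 3.73 to 4.44 in wildtype, and on 1418280_PM_at they were 5.81, 2.82 and 2.83 against 3.41 to 4.03. DeltaKlf6 1 was thus above the wildtype range on all 3 probe sets. DeltaKlf6 3 was below it on 1433508_PM_at and 1418280_PM_at, and DeltaKlf6 2 on 1418280_PM_at. No source used here places these probe sets inside or outside the deleted stretch of the gene, and a probe set outside it would not check the deletion. Whole liver also holds Klf6 transcripts from cells that the knockout does not target.

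Klf2 and Klf4 are the family's flow-responsive endothelial members, and Klf4 is also a regulator of epithelial differentiation and pluripotency. Klf4 was at 4.50, 4.52 and 4.78 in wildtype and at 6.61, 3.99 and 3.51 in DeltaKlf6 1, 2 and 3. All 3 DeltaKlf6 libraries lay outside the wildtype range, 1 above it and the other two below. Its difference was 0.10 (SE 0.71, adjusted p = 0.997), and its second probe set, 1417395_PM_at, gave -0.07, with DeltaKlf6 values of 5.36, 3.06 and 3.36. Klf2 was at 5.41, 5.99 and 5.67 in wildtype and at 6.61, 5.40 and 4.93 in DeltaKlf6, again highest in DeltaKlf6 1 and lowest in DeltaKlf6 3. The Klf2 difference was -0.04 (SE 0.42, adjusted p = 0.997).

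Markers of sinusoidal endothelium, the cells in which Klf2 and Klf4 are best known, went both ways. Their list mean over 9 measured markers was 0.02, 0.03 and -0.59 relative to the wildtype mean in DeltaKlf6 1, 2 and 3, where wildtype ran from -0.10 to 0.10. The list mean was thus inside the wildtype range in DeltaKlf6 1 and 2 and below it in DeltaKlf6 3, where Klf2 and Klf4 were low too. Picked after their values were seen, Cdh5 and Lyve1 had the order of Klf2 and Klf4. Cdh5, the endothelial cadherin, ran from 4.56 to 4.90 in wildtype, and DeltaKlf6 1, 2 and 3 read 5.96, 5.22 and 3.59. Lyve1 ran from 6.35 to 7.16 in wildtype, and these libraries read 8.34, 6.51 and 6.15. Most of the other markers did not share this order. Clec4g had the reverse order, at 9.06, 9.64 and 9.87 against 9.31 to 9.80 in wildtype. Among the DeltaKlf6 libraries Kdr (the VEGF receptor), Stab2, Tek, Fcgr2b and Pecam1 were highest in DeltaKlf6 2. Stab1 had the order of Klf2 and Klf4, at 7.79, 7.45 and 7.43, but stayed within the wildtype range in all of these libraries. By group mean 3 markers were higher and 6 lower. Kdr differed by -0.87, Stab2 by -0.61 and Tek by -0.49, and none passed. The part of cell composition in the Klf values was not tested, and in whole tissue fewer cells of a type and less RNA per cell cannot be told apart. Of 8 reported endothelial targets of Klf2 and Klf4, 6 were higher and 2 lower with 0 past the threshold. Kdr, the nitric oxide synthase gene Nos3 (1.03) and Vcam1 (0.97) had the smallest unadjusted p. The list does not separate targets that these factors induce from those they repress, so the count gives no direction of their activity.

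Klf3 and Klf12 are repressors that bind CtBP. Klf3 was at 7.95, 7.76 and 7.56 in wildtype and at 8.83, 8.09 and 6.10 in DeltaKlf6 1, 2 and 3. DeltaKlf6 1 and 2 were above all wildtype arrays and DeltaKlf6 3 was below them by far. The difference was -0.08 (SE 0.61, adjusted p = 0.997). Of its 6 probe sets 5 had DeltaKlf6 1 above the wildtype range, all except 1441200_PM_at. DeltaKlf6 3 was below the range on 3 of 6, and above it on 1441200_PM_at, 1421604_PM_a_at and 1442920_PM_at. DeltaKlf6 2 was above it on 1454666_PM_at, the probe set used, and on 1421604_PM_a_at. It was below the range on 1431630_PM_a_at and 1442920_PM_at. The wildtype means of 1421604_PM_a_at and 1442920_PM_at were under the median of all values.

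Klf12 had the largest difference among the members and a pattern unlike the others. It was at 5.71, 6.16 and 5.40 in wildtype and at 2.63, 6.65 and 3.98 in DeltaKlf6 1, 2 and 3. DeltaKlf6 1 and 3 were below all wildtype arrays, whereas DeltaKlf6 2 was above them. The value in DeltaKlf6 1 lies under the median of that array (3.34), so it cannot be told from background, and no fold is given for it. The differences below rest on this value where DeltaKlf6 1 is included. The group difference was -1.34 (SE 0.87, 95% interval -3.35 to 0.68), with an adjusted p of 0.992 and an unadjusted p of 0.165. It is larger in size than that of 99.7% of all genes, although it ranks 2604 by p among all genes. Without DeltaKlf6 2 the difference was -2.45 (unadjusted p = 0.000677, adjusted p = 0.529), and without DeltaKlf6 1 it was -0.44 (adjusted p = 0.987).

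The probe set behind these values, 1439847_PM_s_at, is of a type that can detect transcripts of more than 1 gene. The next Klf12 probe set, 1455521_PM_at, showed the same order, at 2.95, 6.17 and 4.19 in DeltaKlf6 against 4.73 to 5.86 in wildtype (difference -0.84). The 3 others had wildtype means of 2.68 to 3.21, under the median of all values, and differences of 0.04 to 0.38.

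Klf9, Klf10, Klf11 and Klf13 are the members known to recruit Sin3. Klf9, induced by glucocorticoids and thyroid hormone, was at 10.34, 9.9996 and 10.26 in wildtype and at 10.87, 9.74 and 9.14 in DeltaKlf6. The groups overlapped only through DeltaKlf6 1, which was above every wildtype array while the other libraries were below. The difference was -0.28 (SE 0.41, adjusted p = 0.992). Its second probe set, 1428288_PM_at, kept DeltaKlf6 1 on top (9.97) and had the other two below wildtype (8.81 and 8.98), with a difference of 0.06.

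Klf10, a gene induced early by TGF-beta, was at 6.07, 5.47 and 6.02 in wildtype and at 7.03, 4.96 and 3.66 in DeltaKlf6 1, 2 and 3. It was at 2.27-fold the wildtype mean in DeltaKlf6 1. Its value in DeltaKlf6 3 lay near the median of that array (3.45), so no fold is given for it. The group difference was -0.63 (SE 0.74, adjusted p = 0.992). Klf11, its close relative and also TGF-beta-inducible, was at 5.93, 5.33 and 6.01 in wildtype and at 6.24, 4.94 and 5.43 in DeltaKlf6. It had DeltaKlf6 1 highest but DeltaKlf6 2 lowest (difference -0.22, SE 0.36, adjusted p = 0.992).

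Klf13 and Klf15 varied about as much in DeltaKlf6 as in wildtype. Klf13, known as a regulator of chemokine expression in T cells, was at 7.58, 7.49 and 7.02 in wildtype and at 7.27, 6.82 and 7.45 in DeltaKlf6 (difference -0.18, SE 0.26, adjusted p = 0.992). Its dimmer probe sets had the opposite sign, at 0.33 and 0.42. Klf15, a regulator of amino acid breakdown and gluconeogenesis in fasting liver, was at 7.53, 7.85 and 6.68 in wildtype and at 7.37, 8.24 and 7.04 in DeltaKlf6 (difference 0.19, SE 0.40, adjusted p = 0.994). DeltaKlf6 1 and 3 lay within the wildtype range for Klf15 and DeltaKlf6 2 above it.

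**Figure D2:**
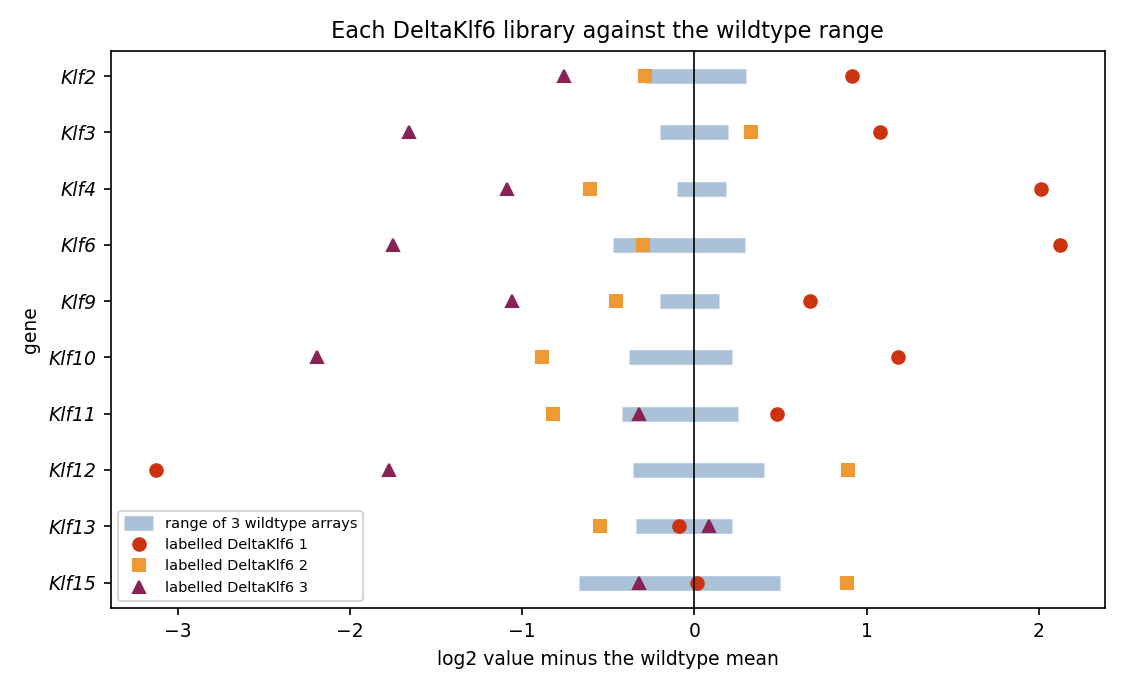
Log2 value of each Klf gene in each library labelled DeltaKlf6 minus the mean of the 3 wildtype arrays, with the wildtype range as a bar. DeltaKlf6 1 lies right of the bar for Klf2, Klf3, Klf4, Klf6, Klf9, Klf10 and Klf11 and left of it for Klf12, whose value there lies under the array median and marks a low level without a measured size.

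Library by library, DeltaKlf6 1 lay above all wildtype arrays for 7 of 10 members and below them for Klf12. Over all genes 29% lay above and 30.9% below in this library, and 32.4% and 33% over the 10795 genes that, like all members, had a mean above the median of all values. Klf3, Klf4, Klf6 and Klf10 exceeded the wildtype mean by over 1 log2 unit, as 6.03% of those genes did, and Klf12, at a value under the array median, was over 1 unit below it, as 6.53% were. DeltaKlf6 3 lay below all wildtype arrays for 7 members (Klf2, Klf3, Klf4, Klf6, Klf9, Klf10 and Klf12) and above them for 0. In that library 35.1% of all genes were below and 27.2% above the wildtype range, while 45.7% of the genes above the median were below and 18% above. Here 6 members, all of these except Klf2, were over 1 log2 unit under the wildtype mean, as were 10.1% of those genes. No member was over 1 unit above it (1.93%). The values of Klf4, Klf6 and Klf10 in this library lay near or under its median, so the size of their difference is not well measured. DeltaKlf6 2 was above the range for Klf3, Klf12 and Klf15 and below it for Klf2, Klf4, Klf9, Klf10, Klf11 and Klf13, beside 28% and 27.6% of all genes and 34.5% and 25.7% of those above the median. No member was over 1 log2 unit above or below the wildtype mean there (5.52% and 1.88%), and Klf2 was only just under the lowest wildtype array.

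The low values of DeltaKlf6 3 stand beside its low upper quartile, and the counts were therefore repeated after the arrays were quantile-normalized again, a choice made after seeing the data. The members below the wildtype range in DeltaKlf6 3 were again 7, although the share of the genes above the median became 30.7%. With each array centred on its median, chosen in the same way, they were 8, beside 53.0%. Those above the range in DeltaKlf6 1 were 7 on each scale. Klf6 stood at 2.07, -0.39 and -1.85 relative to the wildtype mean on the quantile-normalized values, against 2.12, -0.30 and -1.75 as deposited. The order of the libraries for Klf6 was thus the same on these scales.

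**Figure D3:**
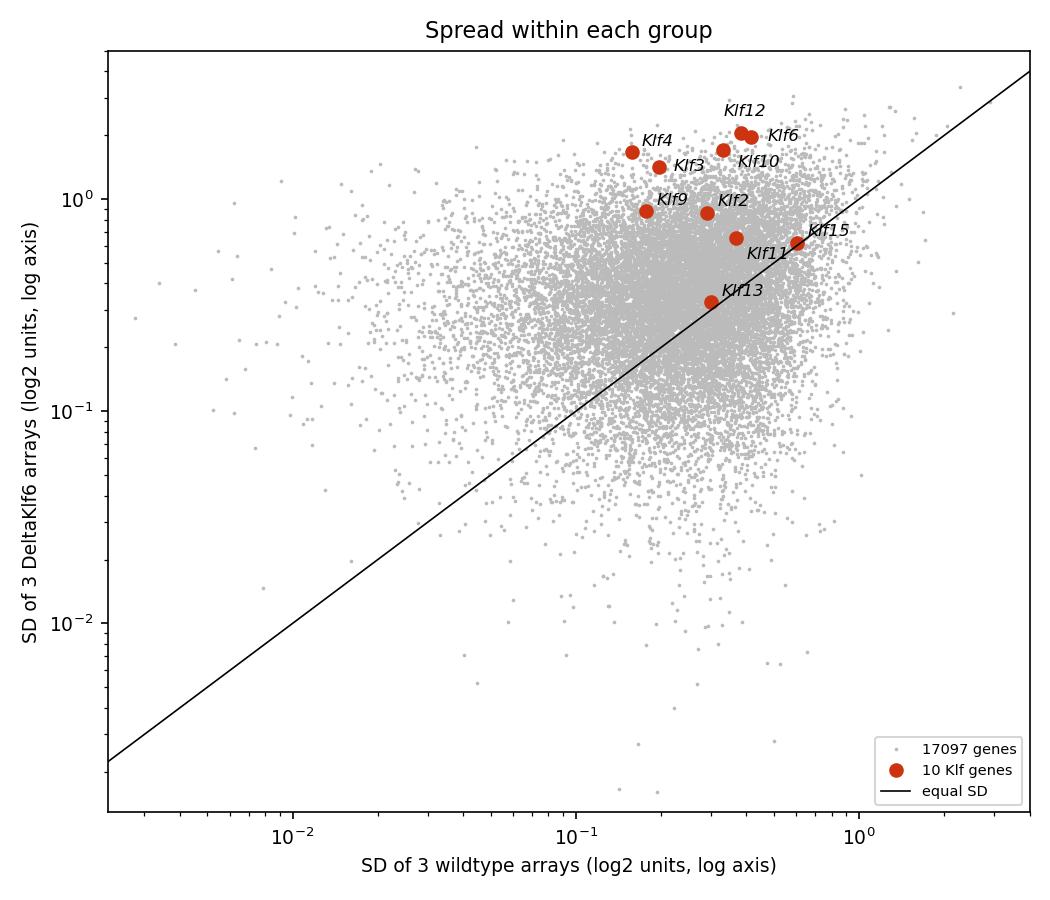
SD over the 3 wildtype arrays and over the 3 DeltaKlf6 arrays for 17097 genes (grey) and the 10 Klf genes (red), both on log axes in log2 units, with a line of equal SD. All 10 Klf genes lie above the line, as do 68.1% of all genes, with Klf4 furthest from it (SD 0.16 and 1.67) and Klf13 and Klf15 next to it.

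The SD over the DeltaKlf6 arrays was 1.04 to 10.6 times the SD over wildtype for the members, and 1.51 times for the median gene. It was 10.6 for Klf4, 7.21 for Klf3, 5.36 for Klf12, 5.13 for Klf10, 4.98 for Klf9, 4.73 for Klf6 and 2.97 for Klf2. Only the ratio of Klf4 and Klf3 exceeded that of 95% of all genes (97.6% and 95.1%). The ratio was 1.79 for Klf11, 1.09 for Klf13 and 1.04 for Klf15, with Klf13 and Klf15 under the median gene. With 3 arrays a group each SD is itself poorly known, and the spread was not tested.

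**Figure D4:**
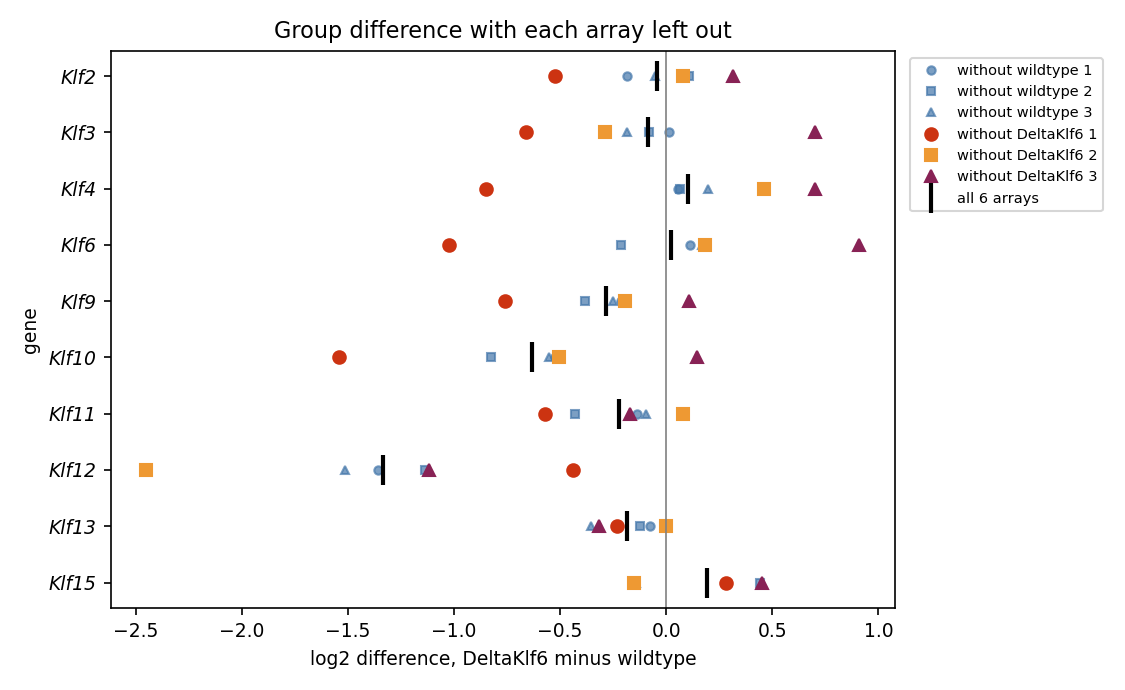
Log2 difference (DeltaKlf6 minus wildtype) of each Klf gene with all 6 arrays (black bar) and with each array left out in turn (blue, a wildtype array; red, orange and purple, a DeltaKlf6 library). Leaving out DeltaKlf6 1 moves Klf6 from 0.02 to -1.03 and leaving out DeltaKlf6 3 moves it to 0.91.

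Single libraries therefore set the sign of most group differences. Without DeltaKlf6 1, 9 of 10 members were lower, all except Klf15, with Klf10 at -1.54 (unadjusted p = 0.00729), Klf6 at -1.03 (0.0598), Klf4 at -0.85 (0.0132) and Klf9 at -0.76 (0.0283). The adjusted p was 0.984 by limma for each of them. In the same fit 700 of 17097 genes had an unadjusted p under 0.05. The share of all genes that were lower was not counted with an array left out. The values of Klf4, Klf6 and Klf10 in DeltaKlf6 3 lay near or under its median, so the size of their difference is not well measured. The groups then did not overlap for Klf2, Klf4, Klf9 and Klf10, that is 4 of 10, where 18.1% of all genes did not overlap. Klf6 was not among them, because DeltaKlf6 2 was within the wildtype range. Without DeltaKlf6 3, 3 of 10 members were lower (Klf11, Klf12 and Klf13), with Klf6 at 0.91 and Klf3 at 0.70 (adjusted p = 0.739 and 0.538). Klf12 was lower with any single array left out, from -2.45 to -0.44, and Klf13 from -0.35 to -0.0018. No member passed adjustment in any of these fits.

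**Figure D5:**
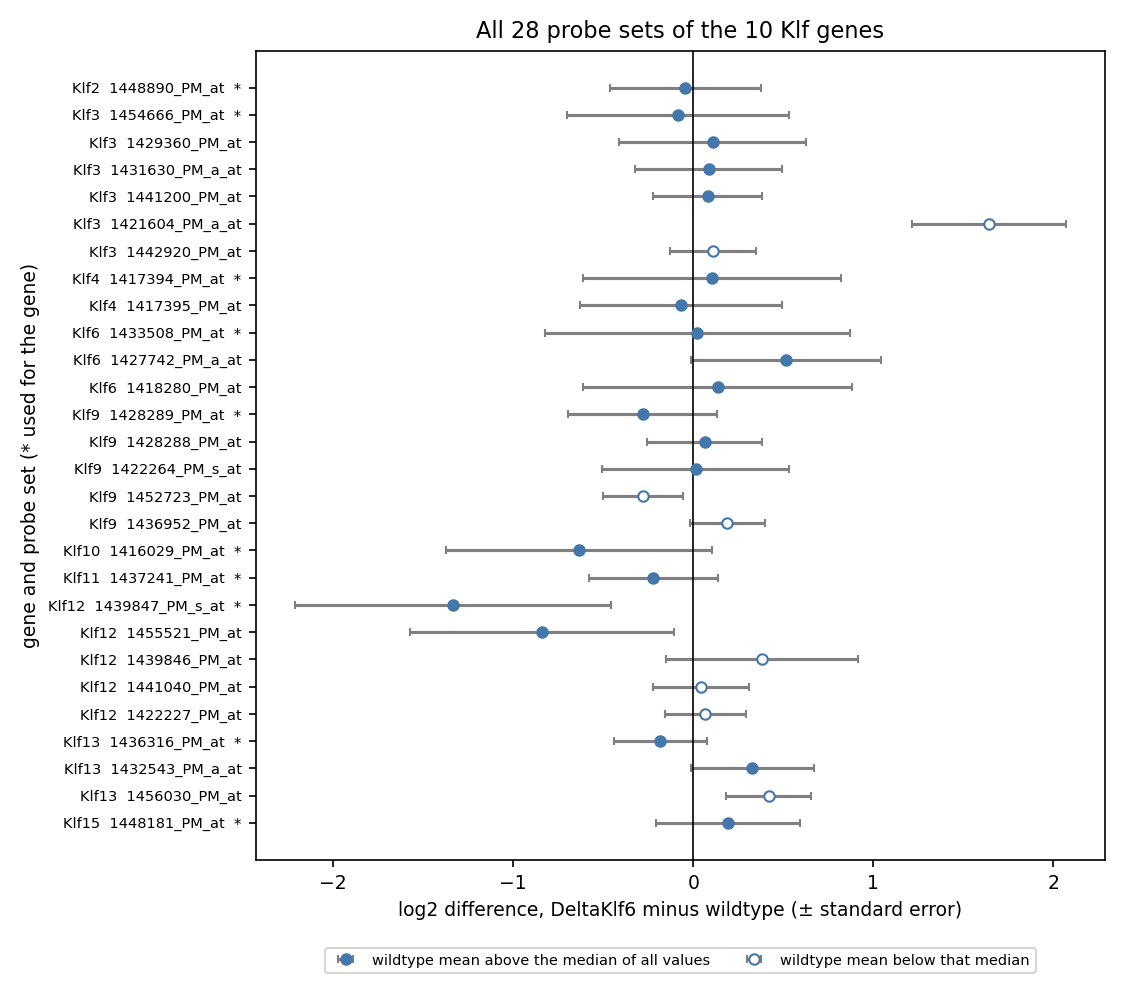
Log2 difference (DeltaKlf6 minus wildtype) with its standard error for all 28 probe sets of the 10 Klf genes, a star marking the one used for the gene and open symbols a wildtype mean under the median of all values. All but 1 of the differences lie between -1.34 and 0.52, and the exception is the dim Klf3 probe set 1421604_PM_a_at at 1.64.

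Among the 28 probe sets 18 were higher and 10 lower by group mean, where 51.2% of all probe sets were lower, and 0 passed adjustment over the 28898 probe sets (0%). The groups did not overlap for 2 of them (7.14%), where 9.48% of all probe sets did not overlap. These are 1421604_PM_a_at of Klf3 and 1436952_PM_at of Klf9. The first was at 2.95, 2.63 and 2.97 in wildtype and at 5.44, 3.60 and 4.43 in DeltaKlf6 (difference 1.64, SE 0.43, unadjusted p = 0.00525, adjusted p = 0.992), and is the only member probe set with an unadjusted p under 0.05. Its wildtype values lie under the array medians, and the 5 other Klf3 probe sets differed by -0.08 to 0.11, so the probe sets of this gene disagree. The Klf9 probe set was at 2.17 to 2.62 in wildtype and 2.64 to 2.67 in DeltaKlf6, all under the median of all values. In DeltaKlf6 1, 18 of 28 probe sets were above all wildtype arrays, beside 29.3% of all probe sets, and in DeltaKlf6 3, 15 were below, beside 34.9%.

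Other members of the family and the related Sp factors were measured in part. Of 7 other Klf genes listed, 4 were measured, with 1 higher, 3 lower and 0 past the threshold. Klf1, the erythroid factor, was at 3.46 to 4.62 in wildtype and at 5.92, 4.39 and 3.39 in DeltaKlf6 (difference 0.53), again highest in DeltaKlf6 1 and lowest in DeltaKlf6 3. Klf16 (-0.25) and Klf17 (-0.09) differed less. The Klf1 value in DeltaKlf6 3 lay under the median of that array (3.45). Both group means of Klf17 were under the median of all values. Such values cannot be told from background. Of 7 measured Sp factors 4 were higher and 3 lower with 0 past the threshold. Sp4 differed by 0.47, Sp3 by -0.62 and Sp6 by 0.16. Both group means of Sp4 and Sp6 were under the median of all values, so their differences may lie in background. Sp3 was low in DeltaKlf6 3, at 4.12 against 6.17 to 6.67 in wildtype, and so was Sp1, at 5.07 against 5.87 to 6.35. In that library 45.7% of the genes above the median of all values lay below the wildtype range.

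The corepressors and coactivators that Klf proteins use had 3 of 8 measured genes higher and 5 lower, with 0 past the threshold and a median of -0.24 (-0.01 over all genes). Ctbp1, the partner of Klf3 and Klf12, was at 9.28 to 9.50 in wildtype and 8.75 to 9.06 in DeltaKlf6 (difference -0.43, SE 0.21, adjusted p = 0.992), without overlap. Sin3a, the scaffold used by Klf9, Klf10, Klf11 and Klf13, differed by -0.48 and the deacetylase Hdac2 by 0.56.

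Lists of inducers and targets were read beside the members. Immediate early genes, the class whose timing Klf2, Klf4, Klf6 and Klf10 share, had 13 of 15 measured genes higher and 2 lower, with a median of 0.33 and 0 past the threshold. Their list mean was 1.43, 0.15 and -0.08 relative to wildtype in DeltaKlf6 1, 2 and 3, against -0.09 to 0.09 in wildtype, so it was high in the library in which Klf6 was high. It was not low in DeltaKlf6 3 to the degree that the Klf members were, whose mean was 0.52, -0.18 and -1.08. Junb (0.86), Egr1 (1.11) and Dusp1 (0.92) had the smallest unadjusted p, and none passed. TGF-beta signalling genes, which bear on Klf10 and Klf11, had 6 of 15 higher and 9 lower with 0 past the threshold (median -0.05). Tgif1, a corepressor of Smad proteins, was at 1.24, Smad6 at -0.73 and Ski at -0.28.

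Glucocorticoid-induced genes, which bear on Klf9 and Klf15, had 2 of 9 higher and 7 lower (median -0.21), with Tat, the tyrosine aminotransferase, at 0.64, Fkbp5 at -0.61 and Pck1 at -0.35. The lower ones include Nr3c1 (-0.16), the gene of the glucocorticoid receptor itself. Both group means of Pck1 were under the median of all values, so its difference may lie in background. Genes of amino acid breakdown and gluconeogenesis, the processes that Klf15 controls, had 4 of 9 higher and 5 lower (median -0.03). The alanine aminotransferase gene Gpt was at 8.86 to 9.10 in wildtype and 9.46 to 9.65 in DeltaKlf6 (difference 0.55, SE 0.20, adjusted p = 0.992), and Prodh was at 0.39. Clock genes had 8 of 15 higher and 7 lower (median 0.06), with Hlf at -1.60, Per3 at -1.76 and Per2 at -1.32. Reported targets of Klf6 had 5 of 13 higher and 8 lower (median -0.02). Of them 0 were without overlap, against 9.32% of all genes, and nothing is read from this count. Atf3 differed by 0.84, Pttg1 by -0.36 and Becn1, an autophagy gene, by -0.23. In each of these lists 0 genes passed the threshold over all genes.

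Markers of liver cell types had 0 genes past the threshold. Hepatocyte markers (7 measured) had list means of 0.06, 0.07 and -0.11 in DeltaKlf6 1, 2 and 3, and -0.03 to 0.02 in wildtype, with 3 markers higher and 4 lower (Hnf4a -0.13, Alb 0.15, Fgb 0.10). Kupffer cell and macrophage markers (8 measured) were at 0.09, 0.75 and -0.03, and -0.22 to 0.11 in wildtype, with 6 markers higher and 2 lower by group mean. C1qb (0.72), Marco (0.44) and C1qa (0.40) had the smallest p, and Adgre1 (-0.23) and Csf1r (-0.19) were the lower ones. Stellate cell and fibroblast markers (8 measured) were at 0.14, 0.49 and -0.46, and -0.17 to 0.25 in wildtype, with 4 markers higher and 4 lower by group mean. Des (0.41), Pdgfrb (0.26) and Col3a1 (0.25) had the smallest p, and Dcn (-0.25), Lrat (-0.16), Reln (-0.08) and Col1a1 (-0.03) were the lower ones. Col1a1 and Hand2, which was counted as higher, had wildtype means under the median of all values. Their values cannot be told from background. Among the DeltaKlf6 libraries these 3 lists were highest in DeltaKlf6 2 and lowest in DeltaKlf6 3. The hepatocyte means of DeltaKlf6 1 and 2 were close, and the Kupffer cell mean of DeltaKlf6 3 was within the wildtype range. The part of these 3 lists in the Klf values was not tested.

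Cholangiocyte markers (4 measured) were at 0.40, -0.02 and 0.06 in the same libraries, and -0.31 to 0.45 in wildtype, with 3 markers higher and 1 lower (Sox9 0.48, Epcam 0.15, Krt7 -0.11). Neutrophil markers (4 measured) were at -0.11, -0.46 and 0.23, and -0.35 to 0.27 in wildtype, with 2 markers higher and 2 lower (Mpo -0.30, S100a8 -0.39, Cxcr2 0.09). Lymphocyte markers (6 measured) were at -0.16, -0.21 and -0.11, and -0.03 to 0.05 in wildtype, with 2 markers higher and 4 lower by group mean. Cd3g (-0.46), Nkg7 (-0.30) and Cd79a (-0.26) had the smallest p, and Cd3e (0.05) was the highest. The mean of the lymphocyte list was thus below wildtype in all DeltaKlf6 libraries, and that of the cholangiocyte list was within the wildtype range. Several of these markers had wildtype means under the median of all values (3.36). They are Cd3g, Nkg7, Ms4a1, Krt19, Krt7, Sox9, Mpo and Cxcr2. Such values cannot be told from background, so the list means are not read as a change in these cells. The part of these lists in the Klf values was not tested.

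Genes whose profile over the 6 arrays was most like that of Klf6 were found by the root mean square difference of values centred on each gene's mean, among 7493 genes with a mean of 5 or more. Mapk6, which encodes the atypical kinase ERK3, came closest. Its difference from the Klf6 profile was 0.098, while the Klf6 profile itself had a root mean square of 1.15. Mapk6 was at 6.05, 5.62 and 6.21 in wildtype and at 7.92, 5.70 and 4.26 in DeltaKlf6 1, 2 and 3. It had the order of Klf6, with DeltaKlf6 1 above and DeltaKlf6 3 below the wildtype range. Apbb3 (0.283), Lmo4 (0.294), Itpkc (0.298) and Lnx2 (0.376) followed.

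For Klf12, the member with the smallest unadjusted p, the nearest genes were Chac2 (root mean square difference 0.333), the transcript C730029A08Rik (0.363), the glucose-6-phosphatase gene G6pc (0.393), Dixdc1 (0.432) and Kank2 (0.437). G6pc was at 10.13 to 10.49 in wildtype and at 7.45, 11.36 and 9.36 in DeltaKlf6 1, 2 and 3. It was thus lowest in DeltaKlf6 1 and highest in DeltaKlf6 2, as Klf12 was. These names are a description of 6 arrays, and the likeness was not tested.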

How the data were processed

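The deposited log2 values had been made by the authors with RMA, and per the submitters' processing notes the software was Expression Console 1.2.1 of Affymetrix. RMA corrects background, quantile-normalizes the arrays and summarises each probe set. The log2 scale was inferred from the highest value, 13.9, since a 16-bit scanner allows at most 16. Genome build and probe annotation: not given in the sources used here.

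Of 45141 probe sets, 28898 had 1 gene symbol, 551 several and 15692 none here, and 104 were controls. All 28 member probe sets had the same symbol in RefSeq. Each gene was read on its probe set of highest mean. DeltaKlf6 was compared with wildtype by limma 3.58.1 in R 4.3.3 (lmFit, eBayes, two-sided), adjusted over all 17097 genes (Benjamini-Hochberg, threshold 0.05), with genotype as the factor. The calculation was tested on simulated data. Only 3 arrays a group limit the precision. The labels number the arrays of each group 1 to 3, and each array was taken as a separate animal.

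The members and lists were chosen with earlier results of these data known. Named genes are all members, up to 3 per list with the smallest unadjusted p, and 5 nearest profiles. Alternatives were the mean of probe sets, other scalings, a filter on dim genes, a variance trend, array weights, a replicate block and each array left out.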

Additional observations from a re-analysis of the deposited data

How the results depend on the processing

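In all 13 alternatives 0 Klf genes and 0 genes in all passed adjustment, and 0 Klf probe sets passed in the 12 that tested them; unadjusted p under 0.05 was reached by 379 to 1546 genes. With single arrays left out the differences ranged from -0.52 to 0.31 for Klf2, -0.66 to 0.70 for Klf3, -0.85 to 0.70 for Klf4, -1.03 to 0.91 for Klf6, -0.76 to 0.11 for Klf9, -1.54 to 0.15 for Klf10, -0.57 to 0.079 for Klf11 and -0.15 to 0.45 for Klf15. The number of members lower by group mean then ranged from 3 to 9, and those without overlap from 0 to 4, beside 16.4% to 25.3% of all genes. The sign also turned for Klf3 (0.32) and Klf13 (0.19) with probe sets averaged per gene, for Klf2 (0.047), Klf3 (0.012) and Klf6 (-0.057) after quantile normalization, and for Klf2 (0.086) and Klf3 (0.30) with array weights. The cause was not tested. Klf12 kept its sign in 13 of 13. Deviations of same-numbered arrays correlated at -0.0049, 0.26 and 0.084, so the numbers were not taken as pairs. With the replicate block the Klf6 difference was 0.02 (adjusted p = 0.999), and the block called 0 genes. No detection call was available, so differences among values near the array medians may lie in background.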
